A study of Mus musculus with 4 samples.

Results

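Zinc finger protein genes were taken from the deposited table of differentially expressed genes by their names, beginning with Zfp or Zbtb and a digit, or with Zscan, Zkscan, Zfhx, Zfand or Znf, and by a mean expression level of at least 0.5 over the 4 samples. Of 5282 genes in the table, 142 had such a name and 137 of these reached the level: 119 Zfp genes, 11 Zbtb genes and 7 others (Zfand5, Zfand6, Zfhx2, Zkscan1, Zscan2, Zscan12 and Zscan26). The samples were total RNA of corpus callosum plus cortex from mice at postnatal day 15, sequenced as TruSeq libraries. The Pdgfra-creER;SmoM2 group (SmoM2, n = 2) carried the tamoxifen-inducible Cre of the Pdgfra-creER line together with SmoM2, an active form of the Hedgehog signal transducer Smoothened. The wild type group (WT, n = 2) was its comparison, and both groups received tamoxifen from postnatal day 5 to 7. In the brain Pdgfra marks oligodendrocyte precursors and also fibroblasts of the meninges and vessels, so the transgene is limited to such cells and their descendants, whereas the RNA came from all cells of the tissue. The labels do not say whether the samples came from separate animals, so the errors below measure the spread between samples, which may be technical.

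C2H2 zinc finger proteins hold a zinc ion in each of a row of small folds that read DNA. Many Zfp proteins also carry a KRAB domain, which recruits the corepressor Trim28 and with it heterochromatin proteins and histone methyltransferases, and such genes lie in clusters formed by local duplication and silence transposable elements. Zbtb proteins join zinc fingers to a BTB domain, which dimerizes and binds corepressors or the ubiquitin ligase scaffold Cul3. Zscan and Zkscan proteins carry a SCAN dimerization domain, Zfhx proteins add homeodomains, and Zfand proteins carry AN1-type fingers that act in the ubiquitin and proteasome system rather than on DNA.

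Smo itself had levels of 10.7 and 11.0 in SmoM2 samples, against 7.12 and 5.75 in WT samples, and its adjusted p in the authors' deposited table was 0.00146. Read totals were not part of the table, so the depth behind each level is unknown. Several cell type markers differed between the groups. All 13 markers of mature oligodendrocytes fell, and summed to 3067 and 3461 in SmoM2 samples, against 6414 and 6029 in WT samples. The 7 listed markers of oligodendrocyte precursors were higher, 3 of them past the call, and summed to 631 and 606 in SmoM2 samples, against 476 and 458 in WT samples. Of 9 listed inhibitory neuron markers 5 rose and 3 fell, and of 10 listed endothelial and mural markers 6 rose and 2 fell. The summed level of 11 listed meningeal fibroblast markers was 1894 and 1943 in SmoM2 samples, against 1052 and 425 in WT samples, and 7 listed choroid plexus markers summed to 77.6 and 631 in SmoM2 samples, against 1224 and 1189 in WT samples. The 5 listed blood markers summed to 65.6 and 120 in SmoM2 samples, against 662 and 450 in WT samples, and 9 listed olfactory bulb markers summed to 99.0 and 43.2 in SmoM2 samples, against 30.4 and 22.5 in WT samples. The choroid plexus and olfactory bulb sums also differed between the SmoM2 samples, and the meningeal fibroblast sum between the WT samples. Single genes made up most of the meningeal and choroid plexus sums and of their spread. Ptgds had 1641 and 1728 in SmoM2 samples, against 933 and 313 in WT samples. Ttr had 71.2 and 618 in SmoM2 samples, against 1203 and 1162 in WT samples. With 2 samples per group, the source of these marker differences was not tested, and they are not credited to genotype here. The part of the markers in the results below was not tested, and in bulk tissue fewer cells of a type and less RNA per cell cannot be told apart.

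Zinc finger protein genes were more often lower than higher in SmoM2 tissue, whereas the table as a whole was nearly balanced. By the authors' log2 fold change (SmoM2 over WT), 53 of the 137 genes were higher and 84 lower, a share of 38.7% higher, against 53% of all 5041 listed genes at or above the same level. The median was -0.33 for the zinc finger genes and 0.23 for all genes. The table held only genes with an unadjusted p of at most 0.05, so a difference of some size in each gene was given by the listing and is no finding. By the authors' deposited table, 34 zinc finger genes passed at an adjusted p-value up to 0.05, the call behind the words rose and fell here (24.8% of the 137), against 38.3% of all listed genes. Of these, 16 rose and 18 fell, beside 21.8% of all genes higher and 16.5% lower. Both SmoM2 levels lay on the same side of both WT levels for 105 of 137 genes (76.6%), with SmoM2 above in 51 and below in 54. Over all genes the share was 84.8%, with SmoM2 above in 49.6% and below in 35.2%. With 2 samples against 2, an exact two-sided permutation test cannot give a p under 0.333. limma was fitted to log2(level + 1) over all 5041 genes, and its p-values were adjusted for 57010 tests, the number implied by the authors' adjusted p. This is stricter than an adjustment over 5041. In that fit 0 zinc finger genes and 1 other gene reached an adjusted p of 0.05, and 46 zinc finger genes, 20 of the 34 among them, had an unadjusted p at or under 0.05.

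The 3 name groups had like medians. Among Zfp genes 47 were higher and 72 lower with a median of -0.34, and 15 rose and 15 fell. Among Zbtb genes 4 were higher and 7 lower with a median of -0.26, and 1 rose and 2 fell. Of the 7 others, 2 were higher and 5 lower with a median of -0.29, and 1 fell. Differences between the groups were not tested. At the level limit, Zfp648 was the lowest gene inside, with levels of 0.71 and 0.96 in SmoM2 samples and 0.20 and 0.46 in WT samples. Just outside were Zbtb32, at a mean of 0.465, and Zfp939, which was listed at 1.76 and 0 in SmoM2 samples and at 0 in both WT samples. The lowest genes inside the limit in the other groups were Zbtb1, at 1.31 and 1.28 in SmoM2 samples and 1.44 and 1.93 in WT samples, and Zscan12, at 3.26 and 2.94 in SmoM2 samples and 3.47 and 5.26 in WT samples.

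Within the Zfp genes the direction differed by whether the protein carries a KRAB domain. A profile search of the GENCODE M21 coding sequences found the domain in 58 of the Zfp genes and not in 59, and the remaining 2, Zfp469 and Zfp862-ps, have no coding sequence in that annotation. Of the 58 genes with the domain 7 were higher and 51 lower, with a median authors' log2 fold change of -0.44, and 2 rose (Zfp973 and Zfp282) and 7 fell. Of the 59 genes without it 38 were higher and 21 lower, with a median of 0.32, and 13 rose and 8 fell. The SmoM2 levels lay below both WT levels in 30 of the 58 and above them in 5. In the 59 genes without the domain they lay above in 38 and below in 14. The groups were thus without overlap in 60.3% of KRAB genes and 88.1% of those without KRAB, beside 84.8% of all listed genes, and 15.5% and 35.6% passed, beside 38.3%. KRAB genes were therefore separated and called less often than the table as a whole, though mostly on the lower side. The genes with KRAB were expressed at a median level of 6.03 and those without at 12.5, and their proteins held a median of 11 and 7 C2H2 finger matches. The split by KRAB was made after the values were known, and it is given as a description. Several KRAB genes share transcript sequence with other genes, as given below, so their levels are less certain.

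**Figure D1:**
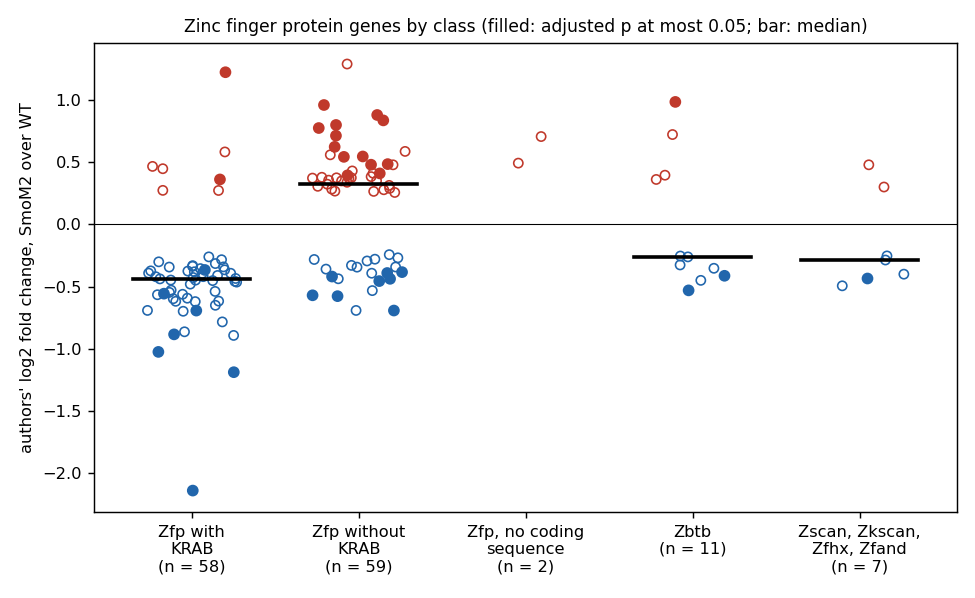
Log2 fold change of SmoM2 over WT in the authors' deposited table for each of the 137 zinc finger protein genes, by class; filled points passed (adjusted p up to 0.05) and bars are medians. Zfp genes with KRAB lie mostly below 0 (51 of 58) and Zfp genes without it mostly above (38 of 59).

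The KRAB classes also differed in base composition, and direction followed base composition across the whole table. The longest coding transcript had a median of 40.6% G and C bases in Zfp genes with KRAB and 55.0% in those without. All 4989 annotated genes were put into 5 groups of equal size by transcript GC content. From the lowest to the highest group, 6.31%, 15%, 57.6%, 89.0% and 97.6% of all genes were higher in SmoM2 samples. Zinc finger genes had 2 of 60, 3 of 24, 7 of 12, 21 of 21 and 20 of 20 higher in the same groups. In the lowest group 2 of 42 KRAB genes and 0 of 13 Zfp genes without KRAB were higher, and in the highest group both KRAB genes and all 17 Zfp genes without KRAB were. The classes thus had like directions at either end. Spearman's rho between log2 fold change and transcript GC content was 0.74 over the 137 zinc finger genes and 0.61 over all 4989, given as a description, since genes share their libraries. With transcript length rho was -0.04 in both sets. With mean level it was 0.31 over the zinc finger genes and -0.10 over all. Within KRAB genes rho was 0.62 with mean level and 0.50 with GC content. Within Zfp genes without KRAB it was -0.06 and 0.75. The part of base composition or of level in these directions was not tested.

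**Figure D2:**
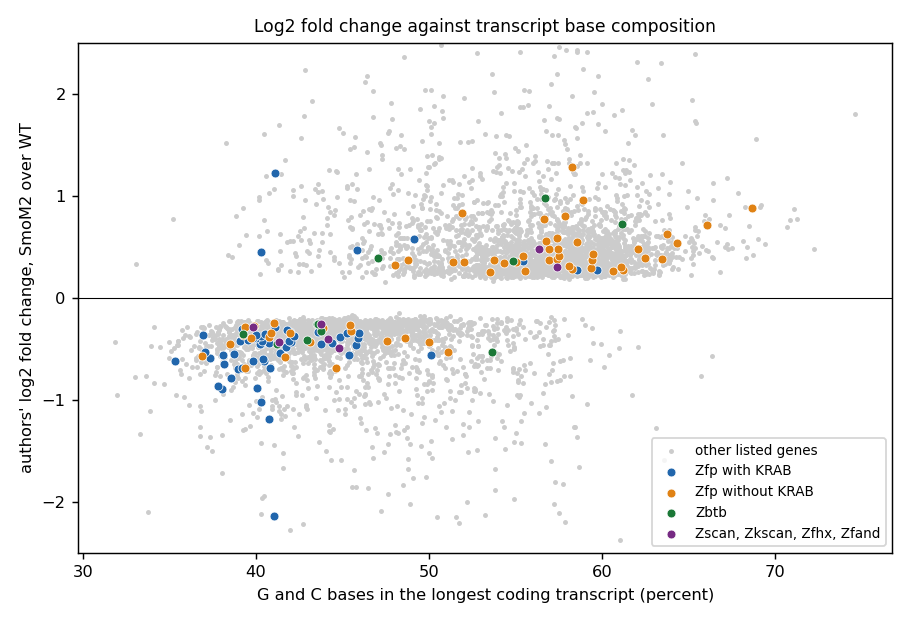
Log2 fold change of SmoM2 over WT in the authors' deposited table against the GC content of each gene's longest coding transcript, for listed genes (grey) and zinc finger genes by class; 95 genes with an absolute value over 2.5 fall outside the axis. Zinc finger genes lie within the grey cloud, low in GC when lower in SmoM2 samples and high in GC when higher; the gap at 0 follows from the listing at an unadjusted p of at most 0.05.

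The libraries did not contribute evenly. Each level was set against its gene's mean over the 4 samples on the log2(level + 1) scale. The median deviation of KRAB genes was -0.11 and -0.19 in SmoM2 samples, against 0.003 and 0.29 in WT samples. That of Zfp genes without KRAB was 0.15 and 0.16 in SmoM2 samples, against -0.20 and -0.09 in WT samples. WT replicate 2 was the highest library for 41 of 58 KRAB genes (70.7%), and for 33.3% of all genes. Without it the median limma difference of the KRAB genes was -0.12, against -0.29 with all samples, and 40 rather than 50 of 58 were lower by level. The median of all zinc finger genes was then -0.002, against -0.17 with all samples, and 68 were higher and 69 lower by level. Zfp genes without KRAB had a median of 0.40 without it, against 0.37 with all samples. Over all genes of the lowest GC group the median deviation was -0.09 and -0.19 in SmoM2 samples and 0.04 and 0.23 in WT samples, so WT replicate 2 was also highest there.

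**Figure D3:**
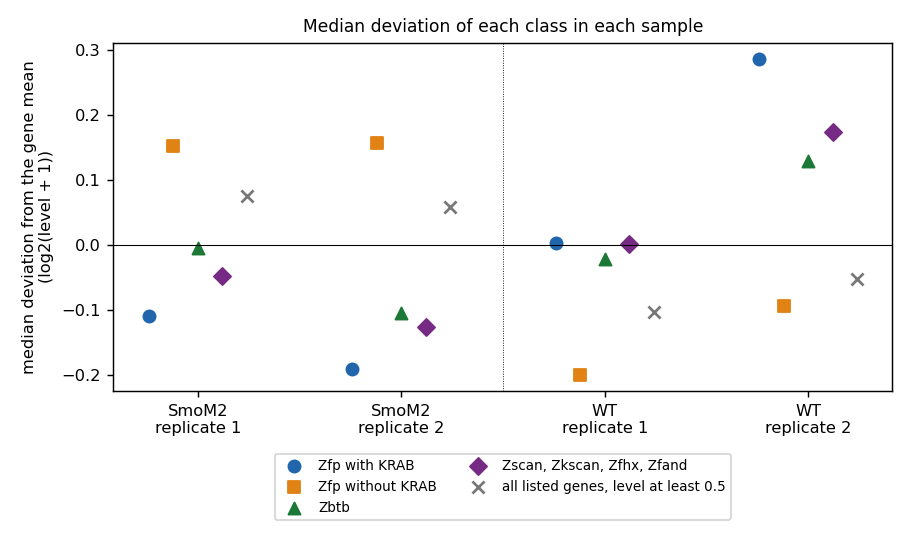
Median deviation of each class from the gene means in each sample, on the log2(level + 1) scale. KRAB genes lie lowest in SmoM2 replicate 2 (-0.19) and highest in WT replicate 2 (0.29), near 0 in WT replicate 1 (0.003), while Zfp genes without KRAB lie above 0 in both SmoM2 samples.

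Promoter windows of the members with the lowest adjusted p in each direction, among those that passed and whose groups did not overlap, are shown as examples of base composition at the gene starts. Each runs from 250 bases before to 50 bases after the RefSeq start on GRCm38.p6, with CG dinucleotides in capitals. Zfp771 (chr7:127244276-127244575, plus strand) and Zfp580 (chr7:5051282-5051581, plus strand) rose, and Zfp968 (chr2:175372186-175372485, plus strand) and Zfp260 (chr7:30094826-30095125, plus strand) fell.
Zfp771: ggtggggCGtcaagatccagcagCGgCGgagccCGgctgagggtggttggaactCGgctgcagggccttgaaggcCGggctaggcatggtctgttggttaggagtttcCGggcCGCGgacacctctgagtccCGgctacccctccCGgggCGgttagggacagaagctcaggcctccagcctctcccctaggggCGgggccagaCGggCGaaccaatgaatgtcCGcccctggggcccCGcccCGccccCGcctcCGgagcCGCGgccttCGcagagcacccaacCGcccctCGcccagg
Zfp580: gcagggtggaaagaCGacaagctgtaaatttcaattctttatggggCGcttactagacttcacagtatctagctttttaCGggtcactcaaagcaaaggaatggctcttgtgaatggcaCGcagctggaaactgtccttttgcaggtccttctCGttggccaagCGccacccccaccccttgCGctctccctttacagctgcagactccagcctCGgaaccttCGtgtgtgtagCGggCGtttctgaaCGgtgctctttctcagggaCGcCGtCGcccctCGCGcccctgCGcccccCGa
Zfp968: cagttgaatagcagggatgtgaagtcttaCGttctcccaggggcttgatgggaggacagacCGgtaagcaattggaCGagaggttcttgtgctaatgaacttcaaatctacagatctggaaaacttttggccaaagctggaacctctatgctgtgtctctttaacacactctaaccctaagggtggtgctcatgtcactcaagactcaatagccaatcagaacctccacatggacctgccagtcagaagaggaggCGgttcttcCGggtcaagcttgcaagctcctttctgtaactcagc
Zfp260: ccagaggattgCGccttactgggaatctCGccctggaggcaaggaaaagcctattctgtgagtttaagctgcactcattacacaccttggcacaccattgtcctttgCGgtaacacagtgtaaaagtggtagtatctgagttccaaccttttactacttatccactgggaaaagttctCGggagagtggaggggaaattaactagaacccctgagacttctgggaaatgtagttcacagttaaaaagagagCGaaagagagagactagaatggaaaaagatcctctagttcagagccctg
The windows held 25 and 19 CG dinucleotides in Zfp771 and Zfp580, and 5 in each of Zfp968 and Zfp260. These counts lie further apart than the medians: the median was 19 in 13 windows of genes that rose and 11 in 15 of genes that fell, and the ranges overlapped, with 9 in Zfp219, which rose, and 36 in Zfp367, which fell. RefSeq windows matched 108 of the 137 genes. The median number of CG dinucleotides was 10 in 47 KRAB windows, 22 in 45 windows of Zfp genes without KRAB, 34 in 9 Zbtb windows, and 21 over 3700 listed genes. The GLI consensus GACCACCCA, bound by the factors at the end of the Hedgehog pathway and searched on both strands, was in 0 of 108 windows, in 8 of the 3700 (0.22%) and in 65 of all 27025 RefSeq windows (0.24%). No match says only that these letters were absent from the windows. The GC box GGGCGG, bound by Sp factors, was on either strand in 54 of 108 windows (50%), against 65.1% of listed genes and 35.9% of all windows. The E box CACGTG, which reads the same on both strands, was in 9 of 108 windows (8.33%), against 9.65% of listed genes and 7.24% of all windows. The 3 motifs do not contain each other.

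Members that rose were mostly Zfp genes without KRAB. Zfp771, an 8-finger gene on chromosome 7 (127244274-127254803), had levels of 99.98 and 72 in SmoM2 samples, against 38.5 and 39.1 in WT samples. The groups did not overlap, and both SmoM2 samples stood well above the WT samples, which were nearly equal. The limma difference was 1.11 ± 0.16 (SE), and the authors' deposited table had 0.88 as its log2 fold change and 4.2e-11 as its adjusted p, the lowest of the 137. Zfp580, with 3 fingers, had 89.2 and 92.3 in SmoM2 samples, against 53.4 and 52.0 in WT samples, without overlap. Its limma difference was 0.77 ± 0.09, and the adjusted p was 1.24e-06 in the authors' deposited table. Zfp467, which promotes adipocyte differentiation in mice, had 16.7 and 18.9 in SmoM2 samples, against 9.30 and 7.47 in WT samples, with a limma difference of 1.01 ± 0.16 and, by the authors' deposited table, an adjusted p of 0.000237. Zfp428 had 80.1 and 78.8 in SmoM2 samples, against 50.7 and 52.4 in WT samples. In each of these genes the lower SmoM2 level lay above the higher WT level.

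Developmental regulators were among them. Zfp423, a multi-finger factor needed for cerebellar development and active in adipocyte commitment, had 9.36 and 9.85 in SmoM2 samples, against 7.04 and 7.56 in WT samples. Zfp503 (Nolz1), a transcriptional repressor that acts in striatal and limb development, had 2.06 and 2.57 in SmoM2 samples, against 1.33 and 0.90 in WT samples. Neither overlapped, and their adjusted p in the authors' deposited table was 0.000103 and 0.0141. Zfp385a, which binds RNA and p53, had 57.6 and 65.3 in SmoM2 samples, against 39.7 and 49.1 in WT samples, also without overlap. Zfp618 was low, at 1.58 and 1.59 in SmoM2 samples and 0.90 and 0.79 in WT samples. The other genes that rose were Zfp219, Zfp282, Zfp341, Zfp362, Zfp579, Zfp865, Zfp973 and Zbtb7c, all without overlap between the groups. Leaving out 1 library moved the limma difference by more than 1.5 times in 4 of the 16. Zfp579 was at 0.44 with all samples and 0.23 without WT replicate 1, and Zfp362 at 0.48 and 0.30. Zfp341 stood at 0.58 with all samples, 0.24 without WT replicate 1 and 0.93 without WT replicate 2. Zfp973 stood at 1.25 with all samples, 1.94 without WT replicate 1 and 0.56 without WT replicate 2.

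**Figure D4:**
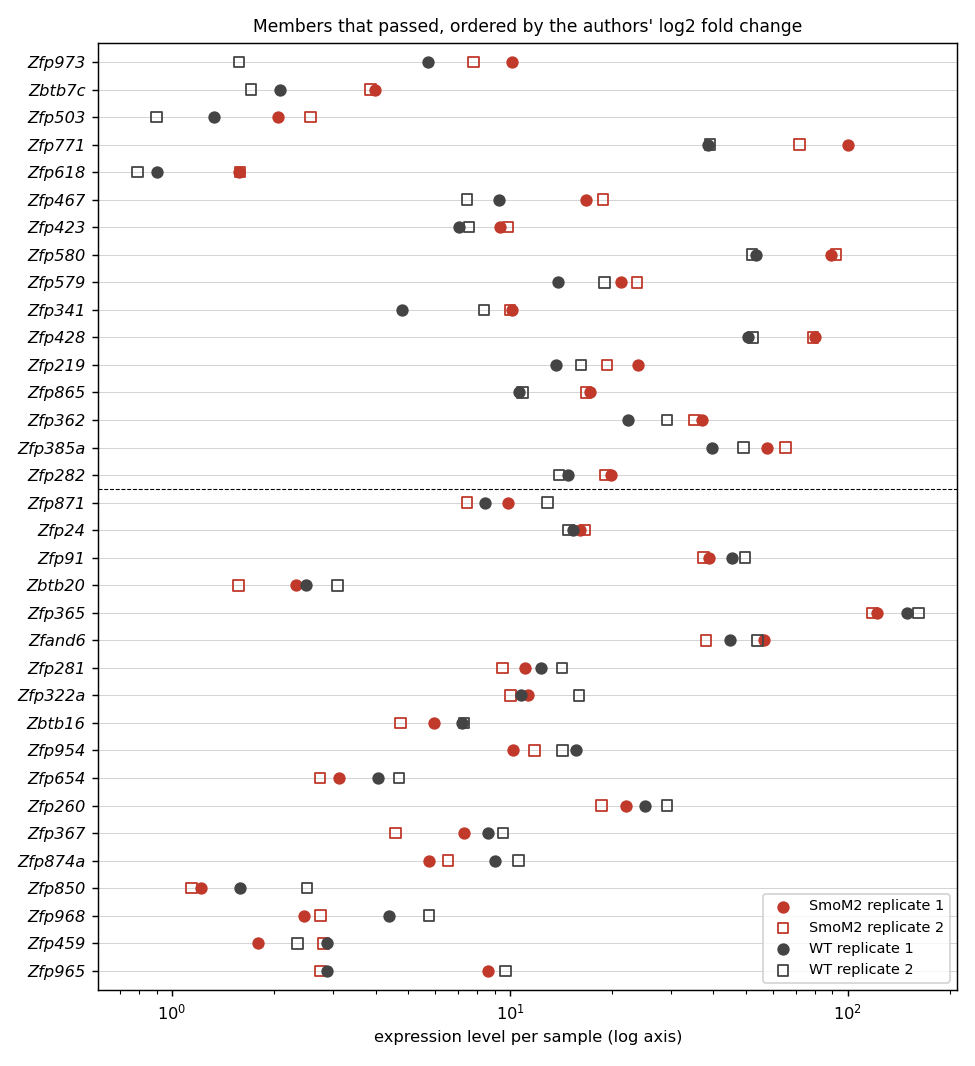
Expression level of the 34 zinc finger genes that passed (adjusted p up to 0.05), in each SmoM2 and WT sample, on a log axis, ordered by the log2 fold change of the authors' deposited table; genes above the dashed line rose and those below it fell. The groups lie apart for all 16 that rose, and overlap for Zfp965, Zfp459, Zfp322a, Zfand6 and Zfp871 among those that fell, while the SmoM2 levels of Zfp24 lie above its WT levels.

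Members that fell were low to moderate in level, apart from Zfp365, Zfand6 and Zfp91. Zfp365, whose product binds DISC1 and acts in oligodendrocyte differentiation and dendrite growth in rodents, had 122 and 118 in SmoM2 samples, against 149.7 and 162 in WT samples. The groups did not overlap, and the limma difference was -0.37 ± 0.09, and by the authors' deposited table the adjusted p was 0.000941. Zfp260, with 12 fingers, had 22.1 and 18.7 in SmoM2 samples, against 25.1 and 29.1 in WT samples, and its adjusted p by the authors' deposited table was 4.88e-05. Zfp281, a regulator of pluripotency, had 11.1 and 9.49 in SmoM2 samples, against 12.3 and 14.2 in WT samples, without overlap. Zfp91, a ubiquitin ligase with zinc fingers, had 38.9 and 37.3 in SmoM2 samples, against 45.3 and 49.6 in WT samples. In these genes both SmoM2 samples lay below both WT samples.

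Of the KRAB genes that fell, Zfp968, Zfp850, Zfp874a and Zfp954 did not overlap between the groups. Zfp968 had 2.45 and 2.75 in SmoM2 samples, against 4.38 and 5.75 in WT samples, and Zfp874a had 5.74 and 6.56 in SmoM2 samples, against 9.04 and 10.6 in WT samples. Zfp954 had 10.2 and 11.8 in SmoM2 samples, against 15.7 and 14.3 in WT samples. Zfp850 had 1.22 and 1.14 in SmoM2 samples, against 1.59 and 2.51 in WT samples, and its limma difference of -0.47 became -0.25 without WT replicate 2. The other 3 overlapped. Zfp965 had the lowest log2 fold change of the 137 in the authors' deposited table, -2.14, yet its levels were 8.61 and 2.75 in SmoM2 samples and 2.88 and 9.71 in WT samples, and its limma difference of -0.10 ranged from -0.84 to 0.63 as single libraries were left out. Zfp459 and Zfp871 likewise changed sign, to 0.08 without SmoM2 replicate 1 for Zfp459 and to 0.02 without WT replicate 2 for Zfp871, from -0.15 and -0.26 with all samples. Their differences also moved by more than 1.5 times without each of the other libraries, to between -0.37 and -0.04 for Zfp459 and between -0.54 and -0.08 for Zfp871.

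Of the other Zfp genes that fell, Zfp654 had 3.11 and 2.74 in SmoM2 samples, against 4.06 and 4.69 in WT samples. Zfp367 had 7.30 and 4.58 in SmoM2 samples, against 8.61 and 9.53 in WT samples, and its limma difference of -0.56 was -0.85 without SmoM2 replicate 1 and -0.28 without SmoM2 replicate 2. Zfp322a, which acts in pluripotent cells, overlapped, at 11.32 and 10.03 in SmoM2 samples and 10.80 and 15.98 in WT samples, and its difference of -0.28 was -0.54 without WT replicate 1 and -0.02 without WT replicate 2. Zfp24, required for the terminal differentiation of oligodendrocytes in mice, was at 16.2 and 16.7 in SmoM2 samples and 15.4 and 14.9 in WT samples. Its level was therefore higher in both SmoM2 samples, although the authors' deposited table put its log2 fold change at -0.38 and its adjusted p at 0.0399. Level and log2 fold change differed in sign in 2 of the 137 genes, Zfp24 and Zfp87, and the cause was not tested.

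Among the 11 Zbtb genes, Zbtb7c had the only rise. It had 3.99 and 3.87 in SmoM2 samples, against 2.09 and 1.71 in WT samples, a limma difference of 0.77 ± 0.19 and, by the authors' deposited table, an adjusted p of 0.000523. Zbtb16 (PLZF), which maintains stem and progenitor cells, had 5.95 and 4.74 in SmoM2 samples, against 7.22 and 7.31 in WT samples. Zbtb20, which specifies hippocampal neurons, had 2.33 and 1.57 in SmoM2 samples, against 2.49 and 3.09 in WT samples. Both fell without overlap, and SmoM2 replicate 2 was the lowest sample for each. The limma difference of Zbtb16 was -0.39, and -0.25 without SmoM2 replicate 2, and that of Zbtb20 was -0.37, -0.56 without SmoM2 replicate 1 and -0.18 without SmoM2 replicate 2. The highest level of any zinc finger gene belonged to Zbtb18, a repressor needed for cortical neuron differentiation, with 190.4 and 192 in SmoM2 samples, against 201 and 219 in WT samples. Its adjusted p by the authors' deposited table was 0.114, so it did not pass. Zbtb33 (Kaiso), which binds methylated DNA, and Zbtb45 did not pass either: Zbtb33 had 8.45 and 8.38 in SmoM2 samples and 9.85 and 10.1 in WT samples, and Zbtb45 had 29.4 and 28.2 in SmoM2 samples and 19.0 and 22.3 in WT samples.

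Of the Zscan, Zkscan, Zfhx and Zfand genes, Zfand6 alone passed. Zfand6 fell in the authors' deposited table, at an adjusted p of 0.0193, but its levels of 56.6 and 38.0 in SmoM2 samples overlapped those of 44.8 and 54.0 in WT samples. Its limma difference of -0.08 ranged from -0.37 to 0.20 as single libraries were left out. Zfand5, the highest of the 7 and a factor that binds the proteasome, had 83.7 and 91.0 in SmoM2 samples, against 110.7 and 116 in WT samples. The groups did not overlap and the limma difference was -0.37 ± 0.09, but the adjusted p in the authors' deposited table was 0.109. Zfhx2 had 5.25 and 4.58 in SmoM2 samples and 3.94 and 4 in WT samples, and Zkscan1 had 9.54 and 9.05 in SmoM2 samples and 9.96 and 11.2 in WT samples, and neither passed. A SCAN domain was found in 7 of the 137 genes, of which 3 were higher and 4 lower.

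Lists of zinc finger genes by role gave these counts, beside 38.3% of all listed genes that passed, 21.8% higher and 16.5% lower. Differences from these shares were not tested. Of 27 with roles in neural or glial development, 15 were listed, 7 higher and 8 lower, and 6 of them passed (40%), near the share of the table. Zfp423 and Zfp503 rose, and Zbtb16, Zbtb20, Zfp24 and Zfp365 fell. Zfp703, Zfp462, Zfp638 and Zfhx4, the last below the level limit, were in this list and did not pass. Of 13 that bind RNA or act in translation, 2 were listed: Zfp385a rose, and Zfp598, the ligase that marks collided ribosomes, had 17.8 and 18.6 in SmoM2 samples and 12.9 and 13.8 in WT samples, and by the authors' deposited table its adjusted p was 0.0803. Of 15 that act in early embryos and stem cells, 4 were listed and 3 passed: Zfp281, Zfp322a and Zfp91 fell, though Zfp322a overlapped between the groups. Zfp57, the KRAB protein that maintains genomic imprints, had 11.7 and 11.6 in SmoM2 samples and 6.91 and 9.13 in WT samples and did not pass.

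Genes lying together on a chromosome mostly had the same sign. With starts at most 1 Mb apart, 39 of the 137 genes formed 7 clusters of 4 or more (GRCm38 coordinates). All 10 on chromosome 13 (67069399-67729173), all KRAB genes, had a log2 fold change below 0 in the authors' deposited table, with a median of -0.56, and Zfp459 and Zfp874a fell. Zfp87, one of them, had levels of 25.11 and 28.76 in SmoM2 samples and 25.97 and 23.76 in WT samples, which overlapped, with a limma difference of 0.11. On chromosome 17 the 5 KRAB genes at 21450374-22377281 and the 4 at 32765496-33255145 were lower, as were the 4 KRAB genes on chromosome 9 (20345136-20521417). On chromosome 7 the 4 genes at 4915217-5053723 (Zfp628, Zfp579, Zfp865 and Zfp580) and the 4 at 24507006-25227507 (Zfp428, Zfp575, Zfp574 and Zfp526), none with KRAB, were higher. Their summed level was 136 and 141 in SmoM2 samples, against 83.6 and 88.7 in WT samples, in the first of these, and 114 and 113 in SmoM2 samples, against 72.4 and 80.7 in WT samples, in the second. The median transcript GC content was 39.1% in the chromosome 13 cluster, 37.4% and 41.0% in those on chromosome 17, and 40.3% in that on chromosome 9. It was 63.6% and 57.9% in the chromosome 7 clusters. The chromosome 2 cluster, described next, had a median of 40.6%, yet Zfp973 (41.1%) and Zfp969 (40.3%) in it were higher. The part of base composition in the cluster directions was not tested.

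The chromosome 2 cluster (174643534-178034022) was mixed: 6 of its 8 genes were lower and 2 higher, with Zfp973 rising and Zfp968 and Zfp965 falling. Several of its genes are near-copies. Of the 75-base windows of their transcripts, 78.3% in Zfp973, 99.6% in Zfp968 and 100% in Zfp965 also occurred in another gene, so reads could be split between them and these values are uncertain. Over the 137 genes 17 shared more than 10% of such windows with another gene, and 89 shared none. Most of the 17 were KRAB genes, so values of KRAB genes beyond chromosome 2 are also less certain. Zfp708 (100%), Zfp729b (40.1%) and Zfp874a (10.4%) of the chromosome 13 cluster were among them, as was Zfp865 (18.1%), which has no KRAB match. Exons of 39 genes overlap a gene on the opposite strand, including Zfp219, Zfp341, Zfp428 and Zfp865 among those that rose and Zfp322a, Zfp367, Zfp459, Zbtb20 and Zfand6 among those that fell. The sources used here do not say whether counting used strand, so their reads and those of the partner may be mixed. Exons of 12 genes overlap a gene on the same strand, which counting by strand would not separate. Zfp865, Zfp973, Zfp91 and Zbtb20 are those among them that passed.

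**Figure D5:**
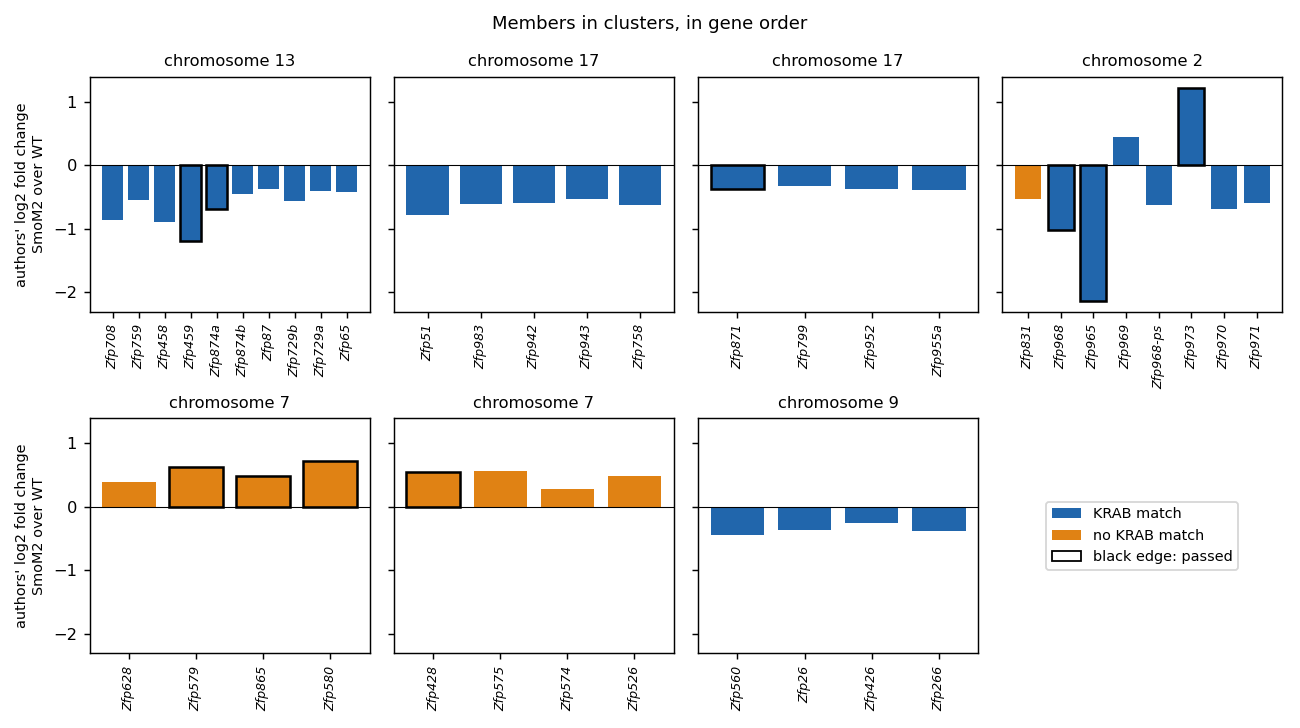
Log2 fold change of SmoM2 over WT in the authors' deposited table for the 39 zinc finger genes in 7 clusters, in gene order, coloured by KRAB match, with a black edge where the adjusted p was at most 0.05. Every cluster has one sign except that on chromosome 2, where 2 of 8 are higher.

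Partners of these proteins were listed in small numbers. Of 24 genes of the KRAB silencing pathway 10 were listed, 5 higher and 5 lower. Cbx3, which encodes the heterochromatin protein HP1 gamma, fell, with 105 and 97.9 in SmoM2 samples, against 128 and 133 in WT samples. Trim28 did not pass, at 108 and 118 in SmoM2 samples and 93.7 and 98.2 in WT samples. Among BTB partners, Hdac5, a histone deacetylase, rose, with 117 and 101 in SmoM2 samples, against 72.7 and 62.8 in WT samples, and Cul3 and Tbl1xr1 fell. Cul3 had 71.1 and 57.5 in SmoM2 samples, against 77.5 and 89.4 in WT samples, and its difference of -0.37 was -0.22 without SmoM2 replicate 2. Tbl1xr1, part of a corepressor complex, overlapped, and its difference of -0.13 was -0.26 without SmoM2 replicate 1 and 0.00 without SmoM2 replicate 2. Of 18 partners of Zfand proteins 3 were listed, and Bag6, a chaperone of misfolded proteins, rose.

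Zinc finger factors under other names passed at a share near that of the table. Of 103 such genes 30 were listed, and 13 of them passed (43.3%), beside 38.3% of all listed genes. Of the 30, 21 were higher and 9 lower, beside 53% of all genes higher, with a median log2 fold change of 0.45, and their difference from the 137 was not tested. In all 11 rose (Adnp, Egr4, Hic1, Klf16, Klf2, Maz, Sall2, Snai1, Sp8, Sp9 and Tshz1) and 2 fell (Egr1 and Klf9). Sp9, a factor of interneuron development, had 6.24 and 4.56 in SmoM2 samples, against 2.13 in each of the WT samples. Sp8 is also among the olfactory bulb markers above. Snai1, a repressor of epithelial genes, had 1.81 and 1.06 in SmoM2 samples, against 0.34 and 0.24 in WT samples. The median transcript GC content of the 30 was 53.2%, against 44.2% in the 137.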

How the data were processed

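Per the labels' protocols, 1 ug of total RNA per sample went into TruSeq libraries; the submitters' processing notes name RSEM, DESeq2 and GRCm38.p6. The authors' deposited table holds 1 level per gene and sample, a signal whose exact unit the sources used here do not name. The levels were treated as scaled for gene length and library, which is an assumption. Per comparison, the deposited table also holds the authors' fold ratio, log2 fold change, p-value and adjusted p-value. Calls use the authors' adjusted p-value, which corresponds to 57010 tests, and the p-values of limma were adjusted for the same number. Levels were tested with limma 3.58.1 (R 4.3.3, trend, pseudocount 1, mean level of at least 0.5). This test replaced count tests, as no counts were used. It was tested on simulated data with equal noise in every gene, which does not show how well it finds changes in these samples. Fold changes on this scale understate those of low genes. KRAB and SCAN matches came from profile searches (pyhmmer 0.12.3, E-value limit 1e-05) of GENCODE M21 coding sequences, tuned on recovering known KRAB proteins. The profile missed Zkscan1 and may have missed others, so genes without KRAB here are those with no match. Promoter windows came from RefSeq (GRCm38.p6). Members, lists and the KRAB split were chosen with earlier results of these data known. Named genes were up to 8 per family and direction without overlap and with the largest change among those that passed, the highest in level, those nearest the level limit, and those in the role lists; up to 3 per direction were named in related lists. Other genes that passed, and the examples Trim28, Zfp428 and those with overlapping groups, were named after their values were seen. Alternatives were pseudocounts, filters, scalings, a replicate block and leaving out each sample. A result among the partner genes is not reported here.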

Additional observations from a re-analysis of the deposited data

How the results depend on the processing

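With an adjusted p of at most 0.01, 16 of the 34 zinc finger genes passed, 9 higher and 7 lower; by limma's adjusted p the count was 0, with 0 higher and 0 lower, although 46 had an unadjusted p at or under 0.05. Without a minimum level 35 passed. Leaving out 1 sample gave medians on the log2(level + 1) scale from -0.2664 to -0.0025 for all zinc finger genes, -0.2783 to 0.0203 for Zfp, -0.1963 to -0.0735 for Zbtb, -0.3112 to -0.0907 for the other 7, -0.4352 to -0.1221 for KRAB genes and 0.2965 to 0.4048 for Zfp genes without KRAB; between 40 and 51 KRAB genes were lower by level and 39 to 40 of those without KRAB higher. Setting samples to equal medians moved the median of all genes to 0.16, against 0.26 as deposited, and gave -0.2527 for Zbtb, -0.2663 for the other 7 and 0.2654 for Zfp genes without KRAB; the last stood at 0.249 after quantile normalization and 0.2469 with a pseudocount of 5. At a mean level of at least 5, 30 of 36 KRAB genes were lower by level. The direction counts of 55 higher and 82 lower by level were the same under both other scalings. The alternatives for the KRAB classes were chosen after seeing the data. With the replicate number as a block the median was -0.1685, as without it. It could not differ, since each group holds each number once, so this is no check on pairing. With that block limma called 0 zinc finger genes. Same-numbered samples deviated with a correlation of -0.08, and nothing in the labels says that the numbers pair them. Of 703 recomputed differences of 60 single genes, 619 moved by no more than the spread between replicates and 78 moved by more. The count of 619 does not measure stability. With 2 samples per group, leaving out 1 cannot move a difference beyond that spread. Level filters and the replicate block cannot move a gene's difference at all. The other 6, in genes that passed, reversed when a sample was left out: differences ranged from -0.3654 to 0.1975 in Zfand6, -0.3698 to 0.0797 in Zfp459, -0.5354 to 0.0203 in Zfp871 and -0.8352 to 0.6297 in Zfp965. Zfp638, which did not pass, also changed sign, to 0.1903 without SmoM2 replicate 2 and 0.1563 without WT replicate 2, from -0.1149. The read depth behind each level is unknown, so what it limits could not be given.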
